A study of Homo sapiens with 9 samples.

Results

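The NKX2-1 sites described here are all 209 peaks of the combined NKX2-1 peak list that the authors deposited for RPMI-8402, an established human cell line of T-lineage acute lymphoblastic leukaemia (T-ALL). They are 209 of 1726 places in all, namely the 1643 regions made by merging overlapping NKX2-1 peaks of the 8 libraries and the 83 combined-list peaks outside those regions. The peak caller's own statistics chose the members, so their enrichment over background (a ratio, given here as a fold) and their −log10 q are given as a description and are not tested. The weakest member by −log10 q, 4532 bp from LOC107985876, had a value of 2.52. The weakest by enrichment, within RUNX2, had 2.58-fold, and places just outside the threshold are not listed in the file. Of the 209, 52 had exactly the ratio and −log10 q of at least 1 other peak of the list.

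ChIP-seq, which sequences the DNA that an antibody recovers from crosslinked and sonicated chromatin, was run on 9 samples to ask where NKX2-1 binds. Of these, 8 used the NKX2-1 antibody ab76013: 1 library for each of 4 wild-type (WT) clones (WT10, WT13, WT28, WT30) and 1 for each of 4 NKX2-1 knockout clones (C12, C15, S04, S36). The knockout clones carry only NKX2-1 as their genotype label, and the word knockout comes from the series design text. The remaining sample is a single library for acetylated lysine 27 of histone H3 (H3K27ac), which has that same genotype label and names no clone. All cells were grown in the same medium with no treatment named, each library stands for 1 clone of a single line, and no label says which libraries entered the combined list or as what control. The spread between clones therefore cannot be told apart from the spread between libraries.

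NKX2-1 (also called TTF1) is a homeodomain transcription factor best known for directing lung, thyroid and forebrain development. Normal T cells do not express it, and chromosomal rearrangements switch it on in a subgroup of T-ALL. Proteins of the NKX2 family prefer DNA that holds CAAGTG or CTCAAG, unlike most homeodomain proteins, which prefer TAAT. H3K27ac marks active promoters and enhancers.

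The line's labelled lineage was checked on the H3K27ac library, which had a peak over 6 of 10 T-lineage genes (CD3D, CD3E, CD3G, LCK, TCF7 and BCL11B), 0 of 6 B-lineage and 0 of 6 myeloid genes. It also had a peak over 2 of 6 lung or thyroid genes. The NKX2-1 libraries held 742 to 1144 peaks each on chromosomes 1 to 22, X and Y, and the H3K27ac library 9857. Depth is unknown because the files hold no read counts, so a site without a call was not called at that library's depth and is not shown to be unbound.

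Only 10 of the 209 peaks overlapped the 300 bases around an annotated gene start (250 before and 50 after), at 11 such windows. The following stretches are the parts of 6 of these peaks that lie before the start, namely the 5 that hold an NKX2 or RUNX match there and, for contrast, that of ZNF764, which holds none. The peaks of CLCN6, of FAM32A and of PPME1 with C2CD3 also reach before the start, hold none of these matches and are not shown, so the set shown is richer in matches than the promoter peaks as a whole. They come from RefSeq, assembly GRCh38.p14, and run 5′ to 3′ on the gene's strand. Capitals mark both NKX2 motifs named above and the letters TGNGGT, with N for any base, which stand in for the RUNX motif. N admits more spellings than a stricter RUNX motif would, so a RUNX match here means these letters only. A match on the other strand appears as the reverse complement. In order, they lie at chr1:16366992-16367196 (plus strand), chr16:1678171-1678278 (plus), chr19:49085201-49085400 (plus), chr22:40533828-40534015 (minus), chr2:210002388-210002637 (plus) and chr16:30558375-30558556 (minus).
SZRD1: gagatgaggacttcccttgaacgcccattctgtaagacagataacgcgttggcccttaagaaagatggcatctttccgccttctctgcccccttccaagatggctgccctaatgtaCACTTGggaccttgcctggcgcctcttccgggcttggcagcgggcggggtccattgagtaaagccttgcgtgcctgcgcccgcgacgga
JPT2: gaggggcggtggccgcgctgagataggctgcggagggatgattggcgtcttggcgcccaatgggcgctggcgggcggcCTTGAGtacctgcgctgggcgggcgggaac
SNRNP70: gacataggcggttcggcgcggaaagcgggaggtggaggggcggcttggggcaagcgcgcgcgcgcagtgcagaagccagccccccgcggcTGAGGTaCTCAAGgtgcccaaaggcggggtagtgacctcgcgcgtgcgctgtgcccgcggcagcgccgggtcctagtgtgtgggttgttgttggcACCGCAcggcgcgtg
MRTFA: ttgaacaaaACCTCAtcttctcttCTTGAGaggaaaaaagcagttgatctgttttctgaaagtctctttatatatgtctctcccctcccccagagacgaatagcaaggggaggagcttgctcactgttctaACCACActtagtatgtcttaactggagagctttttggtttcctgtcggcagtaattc
RPE: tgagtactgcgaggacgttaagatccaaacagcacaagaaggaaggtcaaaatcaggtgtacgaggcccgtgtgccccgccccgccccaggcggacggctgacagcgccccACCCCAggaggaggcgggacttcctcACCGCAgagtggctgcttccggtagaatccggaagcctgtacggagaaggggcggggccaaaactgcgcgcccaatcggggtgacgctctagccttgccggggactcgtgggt
ZNF764: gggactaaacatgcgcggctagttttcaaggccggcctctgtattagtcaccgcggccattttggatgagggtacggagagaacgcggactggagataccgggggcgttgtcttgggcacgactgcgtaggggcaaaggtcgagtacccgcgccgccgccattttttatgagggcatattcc

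The SZRD1 stretch holds 1 CAAGTG match and belongs to the promoter peak called in most WT clones (WT10, WT28 and WT30). JPT2 holds 1 CTCAAG match. In SNRNP70, which encodes a protein of the U1 splicing particle, a CTCAAG match follows a TGNGGT match (TGAGGT) after 1 base. A second TGNGGT match (ACCGCA) lies near the end of the stretch. The MRTFA peak lies 65 bp before a start inside the gene, which encodes an actin-regulated coactivator. This peak holds 1 CTCAAG and 2 TGNGGT matches (ACCTCA and ACCACA). RPE, an enzyme of the pentose phosphate pathway, has 2 TGNGGT matches (ACCCCA and ACCGCA) and neither NKX2 match. ZNF764, the promoter peak with the highest enrichment (5.32-fold), has none of the 3.

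Of the 11 windows, 2 held the NKX2 motif CAAGTG, against 11.5% of all 35116 windows in the table. The other NKX2 motif, CTCAAG, was present in 4 of them, against 12.4% of all windows. The letters TGNGGT were found in 3 windows, against 43.2% of all. Among motifs of other factor families, the E-box CAGNTG was present in 6 windows, against 49.9% of the table's windows. The ETS core, searched as CCGGAA, was likewise found in 6 windows, against 17.2% of all. The GATA motif AGATAA was found in 1, against 10.3%. Each was searched on both strands of the whole window, so a match can lie outside the peak. The window of C21orf58 holds 1 CAAGTG and 1 CTCAAG match, but its peak reaches no base before the start. The NKX2 motifs can share bases with each other, and the windows of PPME1 and C2CD3 share 1 peak and most of their bases. A match describes the letters only. Outside the promoter windows no sequence was used.

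The clones agreed on only part of the list. Of the 209 peaks, 126 had an overlapping peak in at least 1 WT library and none in a knockout library (60.3%, 95% Wilson interval 53.5 to 66.7). The same pattern held for 30.2% of all 1643 merged regions. In 3 or 4 WT libraries there were 24 (11.5%, against 4.02% of all regions), and in all 4 there were 6 (2.87%, against 0.791%). The list and the library calls come from the same experiment, so nothing is read from the excess. The 4 knockout libraries together called 0 of 209, with a limit of 1.44% from counting alone. The control used for the list is unknown, so whether this 0 was fixed when the list was made cannot be told. It is not an estimate of knockout binding. The median distance to the nearest knockout peak was 2409642 bp. A knockout peak lay within 50 kb of 6 peaks, among them those of OLFM1, SARAF, RAB4A, CIB4 and ANKS1A.

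WT10 had a call at 121 of the 126 (96.0%), and 57 peaks were called in WT10 alone. It was also the WT library with the most peaks (1144, against 875 in WT28, 771 in WT30 and 742 in WT13). Outside the list it again had the most calls that no knockout peak overlaps. These were 251, against 127 in WT28, 95 in WT30 and 69 in WT13, so this order of libraries is not particular to the list. The next most frequent combinations were WT10 with WT28 (30 peaks), WT10 with WT28 and WT30 (18) and WT10 with WT30 (9). All 18 peaks called in exactly 3 libraries missed WT13. Only 5 peaks were called without WT10: those nearest to SV2B, ADD3 and VAV3 in WT28, and 2 in WT30, the one nearest to FOXD1 among them. The single peak shared by WT10 and WT13 alone lay 415594 bp from CENPC, which encodes a kinetochore protein. Where a library called a list peak, its summit lay close to the list's, with a median offset of 18 bp in WT10, 9 bp in WT13, 22 bp in WT28 and 40 bp in WT30.

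**Figure D1:**
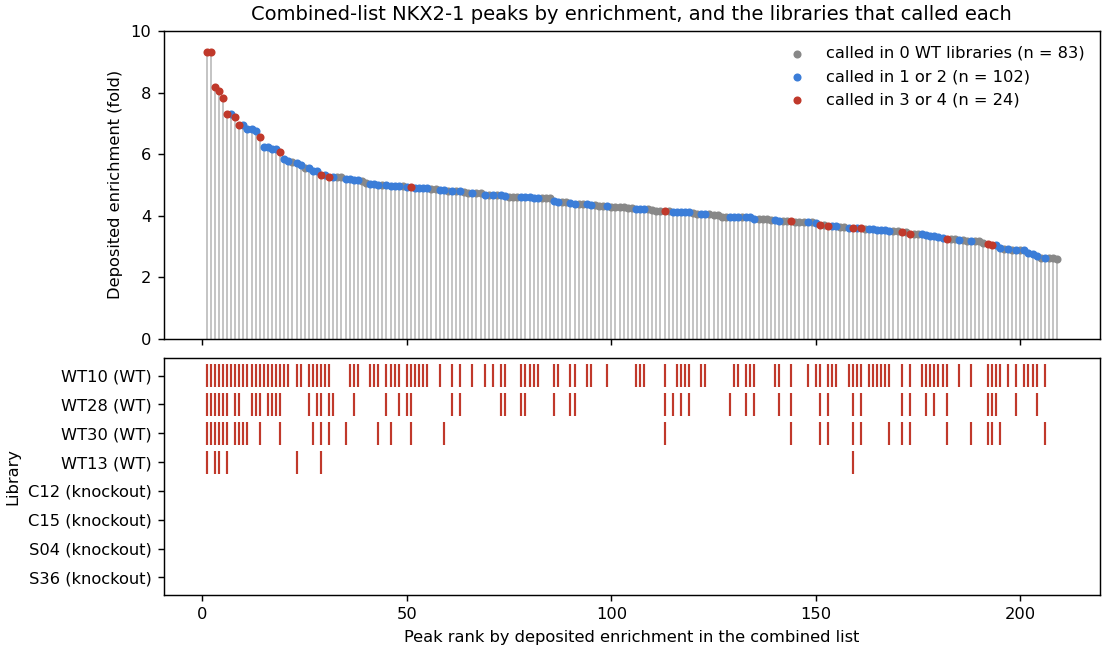
Top, deposited fold enrichment (vertical axis) of the 209 combined-list peaks by rank of enrichment (horizontal axis), coloured by whether 0, 1 or 2, or 3 or 4 WT libraries called them; bottom, a tick for each peak a library called, with no tick in the 4 knockout libraries. The 6 peaks called in all 4 WT libraries range from 9.34-fold down to 3.60-fold, and the peaks called in no library reach 5.74-fold.

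At the 6 peaks called in every WT clone, each library's own enrichment was as follows. Folds of different libraries rest on separate peak calling. At TRIM14, an antiviral signalling adaptor of the tripartite motif family, it was 14.7-fold in WT10, 6.59 in WT13, 11 in WT28 and 9.44 in WT30 (mean 10.4 ± 3.37, SD, n = 4). At USP20, a deubiquitinase, it was 8.51, 5.22, 7.95 and 5.64 in the same order (6.83 ± 1.64). Both summits lie inside their genes, 20.5% and 60.1% of the way from the 5′ end.

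Near MYLK4, a myosin light chain kinase family gene, the values were 9.98 in WT10, 7.27 in WT13, 9.94 in WT28 and 6.92 in WT30 (8.53 ± 1.66, SD, n = 4). Near C1orf174 they were 12.9, 6.65, 7.94 and 9.11 in the same order (9.14 ± 2.69). These 2 peaks lie outside genes and far from both, 120576 bp downstream of MYLK4 and 276833 bp upstream of C1orf174. Within ZNF652, a zinc-finger repressor gene on chromosome 17 (49342147 to 49342518), the values were 10.1, 4.14, 5.96 and 7.94 (7.03 ± 2.55). The peak on chromosome 8 (21484147 to 21484364), 206111 bp from GFRA2, a receptor gene for the neurotrophic factor neurturin, had 11.2, 5.68, 9.83 and 5.97 (8.17 ± 2.77). WT10 was highest at all 6 and WT13 lowest at 5, all but MYLK4.

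The combined list did not rank these sites as the single libraries did. GFRA2 had 3.60-fold in the combined list, below its value in each of the 4 libraries. Among the 24 peaks called in 3 or 4 libraries, the list value lay below every library's own in 13 and above every one in 3, KRABD4, NOSIP and CYRIA. TRIP4, a transcription coactivator gene, had 3.05-fold in the list against 9.73 in WT10, 10.2 in WT28 and 6.67 in WT30. Within MYO3B, a class III myosin gene, the list gave 3.08-fold against 9.14, 7.04 and 6.36. In each library both values lay above that library's median over all its list calls, which was 6.34-fold in WT10, 5.96 in WT28 and 6.005 in WT30.

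The other peaks called in WT10, WT28 and WT30 covered several kinds of genes. CNR2, the cannabinoid receptor of immune cells, had 5.58-fold in WT10, 6.42 in WT28 and 6.59 in WT30 at a peak inside the gene (chromosome 1, 23896484 to 23896796). CD99, a surface glycoprotein abundant on immature T cells and T lymphoblasts, had 8.01, 9.10 and 6.13 (7.75 ± 1.5, SD, n = 3; chromosome X, 2707517 to 2707821, in the gene). KPNA2, an importin that carries proteins into the nucleus, had 10.4, 8.41 and 8.01 at a peak 40607 bp downstream. The highest library was WT30 at CNR2, WT28 at CD99 and WT10 at KPNA2. Over all 18 peaks called in exactly 3 WT libraries WT10 was the highest at most, though these folds rest on separate peak calling.

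GALNT6, which starts O-linked glycan chains, had 8.60-fold in WT10, 5.37 in WT28 and 5.34 in WT30 (6.44 ± 1.87, SD, n = 3). STT3B, a catalytic subunit of the N-glycan transferase, had 5.69, 6.47 and 6.16 (6.11 ± 0.393) at a peak 318868 bp away. RAB4A, a GTPase of endosome recycling, had 5.72, 5.60 and 7.42 (6.24 ± 1.02) at a peak 129185 bp upstream. The highest library was WT10 at GALNT6, WT28 at STT3B and WT30 at RAB4A, though WT10 was highest at most peaks of this kind. CYRIA, which binds the GTPase RAC1, had the narrowest spread of the 24 (4.65 ± 0.35), and TMEM174 among the widest (9.61 ± 3.06). The remaining peaks of this kind lay nearest to KRABD4, a KRAB domain gene, NOSIP, an interactor of nitric oxide synthase, the keratin gene KRT2, the proteasome subunit gene PSMB1, MCTP2, HELT, a basic helix-loop-helix repressor, SZRD1 and LOC124901993, with means between 4.88-fold (KRABD4) and 7.45-fold (MCTP2).

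**Figure D2:**
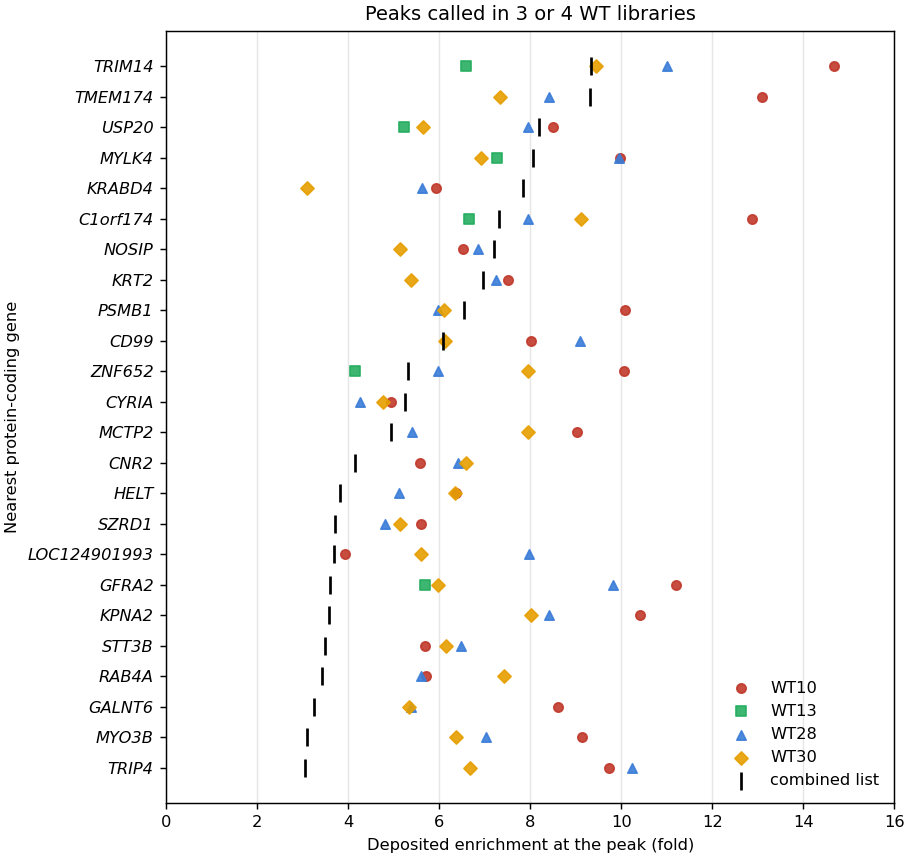
Deposited fold enrichment (horizontal axis) in each WT library (coloured points) and in the combined list (black upright bar) at the 24 combined-list peaks called in 3 or 4 WT libraries, named by nearest protein-coding gene. The list value lies below every library's own at 13 of the 24, GFRA2 and TRIP4 among them.

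The 83 peaks that no library called had no library call close by. Their nearest WT peak lay 3771 bp or more away, at a median of 1471054 bp. The highest among them lay within MAP2, a neuronal microtubule protein gene (5.74-fold), within RGPD3 (5.55-fold) and before SNRNP70 (5.25-fold). They had a median width of 241 bp, against 332.5 bp for the 18 called in 3 libraries and 390.5 bp for the 6 called in 4. Their median enrichment was 4.14-fold, against 4.20 for the 62 called once, 4.65 for the 40 called in 2 libraries, 3.98 for the 18 called in 3 and 7.68 for the 6 called in 4.

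H3K27ac lay over or beside 60 of the 209 peaks (28.7%, 95% Wilson interval 23 to 35.2). Beyond the 32 overlapped, 28 had an H3K27ac peak 12 to 690 bp away, with a median of 151 bp. The next nearest peak, at EVPL, was 2418 bp away, so no distance fell between 690 and 2418 bp. Over 1 to 10 kb there were 12, over 10 to 50 kb 32, over 50 to 200 kb 49 and over 200 kb 56. Of the 28, 6 lay between H3K27ac peaks on both sides within 1 kb, among them those of MYLK4, CSMD1, SSH2, STT3B and TNFAIP8. By merged region, H3K27ac was over or within 1 kb of 33.3% of the regions that hold a list peak. The share was 19.7% of other WT-only regions, 15.2% of knockout-only regions and 8.61% of regions called in both genotypes.

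Within the 32 overlaps the 2 summits rarely coincided. In 28 the H3K27ac summit was more than 200 bp from the NKX2-1 summit, and the median distance was 439.5 bp. The NKX2-1 summit still fell in the H3K27ac peak in 26, and 16 peaks were wholly covered. A wide H3K27ac peak is more readily overlapped by any site, and width was not matched in the next comparison. The H3K27ac peaks at these sites had a median of 10.6-fold, against 6.19-fold over all 9857 H3K27ac peaks. The highest were at LOC124900752 (18.2-fold), GALNT6 (17.7-fold), HHEX (17.7-fold), CYRIA (17.2-fold) and RHEX (16.9-fold), an erythroid expansion regulator.

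Overlap by number of calls showed no steady order. H3K27ac overlapped 7 of the 83 uncalled peaks (8.43%, 95% Wilson interval from 4.15), 13 of 62 called once (21.0%), 3 of 40 called in 2 libraries (7.5%) and 9 of 24 called in 3 or 4 (37.5%, from 21.2). The 9 were USP20, C1orf174, KRABD4, KRT2, CD99, CYRIA, CNR2, RAB4A and GALNT6. Within 1 kb the shares were 18 of 83 (21.7%), 24 of 62 (38.7%), 5 of 40 (12.5%) and 13 of 24 (54.2%), the 4 added to the last class being MYLK4, TMEM174, STT3B and SZRD1. Peaks share libraries and the single H3K27ac library, so these shares are descriptive.

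**Figure D3:**
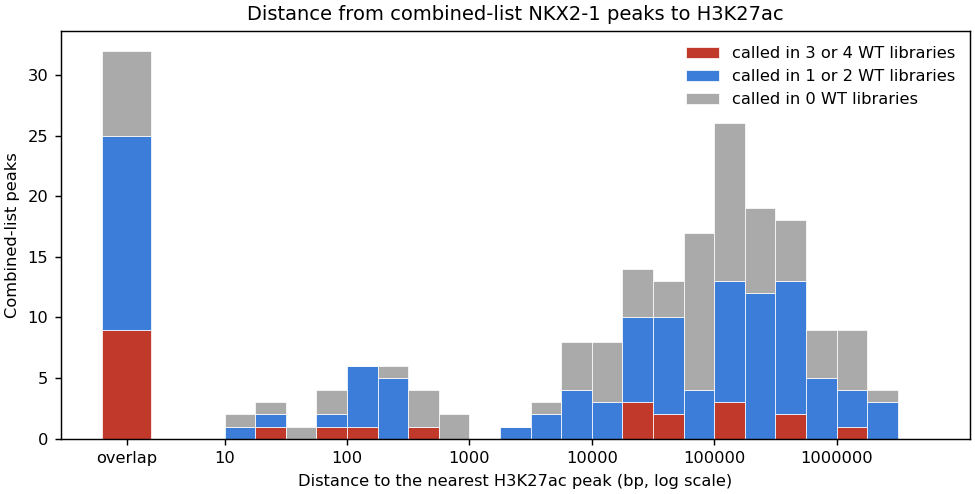
Number of combined-list peaks (vertical axis) by distance to the nearest H3K27ac peak (horizontal axis, bp on a log scale, overlaps as a separate bar at the left), coloured by whether 0, 1 or 2, or 3 or 4 WT libraries called them. H3K27ac overlapped 32 peaks and lay within 1 kb of another 28, while 56 peaks were over 200 kb away.

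In each WT library, list calls overlapped H3K27ac more often than the library's other calls did. The shares were 23.1% against 4.50% in WT10, 28.6% (2 of 7) against 0% (0 of 735) in WT13, 19.3% against 1.47% in WT28 and 31.4% against 0.951% in WT30. The mean was 25.6% ± 5.43 against 1.73% ± 1.94 (SD, n = 4 clones), a difference of 23.9 percentage points ± 6.57. It was positive in 4 of 4, with p = 0.125 in the two-sided exact permutation test over sign changes, the smallest that 4 pairs allow (0.125 after Benjamini-Hochberg adjustment over 4 tests). Against all calls of the knockout libraries (1.67% ± 2.08, n = 4) the difference was 23.9 points, with an exact permutation p of 0.0286, the smallest possible, and 0.0571 after adjustment. All libraries were set against the same H3K27ac peaks, and the 4 WT values share sites. The WT values cover list calls alone and the knockout values all calls, so a permutation p against knockout libraries does not compare like calls.

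The other calls include many regions called in both genotypes, of which 2.46% overlapped H3K27ac. Restricted to other calls that no knockout peak overlaps, an alternative chosen after seeing the data, the WT mean for other calls was 5.22% ± 4.96, and the difference was 20.4 points, positive in 4 of 4. Against knockout calls that no WT peak overlaps it was 23.1 points, with an exact permutation p of 0.0286 and 0.114 after adjustment. That p again does not compare like calls. By region, the overlap was 22.2% of the 126 merged regions that hold a list peak, 8.92% of 370 other WT-only regions and 6.75% of 415 knockout-only regions.

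Position in genes differed in the same direction. List calls had their summit in a protein-coding gene in 47.1% (WT10), 42.9% (WT13), 50.9% (WT28) and 45.7% (WT30), against 13.3%, 6.67%, 9.41% and 7.20% of the other calls. The mean difference was 37.5 points ± 3.27 (SD, n = 4), positive in 4 of 4, with an exact permutation p of 0.125. Against the knockout libraries (9.51% in C12, 8.32% in C15, 6.29% in S04 and 23.8% in S36) it was 34.7 points, with an exact permutation p of 0.0286 and 0.0571 after adjustment. Against only those knockout calls that no WT peak overlaps, again chosen after seeing the data, it fell to 18.4 points, with an exact permutation p of 0.114 and 0.125 after adjustment. There S36 had 50%, and only 1 of the 4 WT values lay above every knockout value. Here too the WT values cover list calls alone, so these permutation p-values against knockout libraries do not compare like calls. Without WT calls that a knockout peak overlaps, also chosen after seeing the data, other calls had 16.2% and the difference was 30.5 points. By region, placed by its middle, 46.0% of the 126 merged regions that hold a list peak lay in a gene. The share was 38.8% of 415 knockout-only regions, 22.7% of 370 other WT-only regions and 9.70% of 732 regions called in both genotypes.

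**Figure D4:**
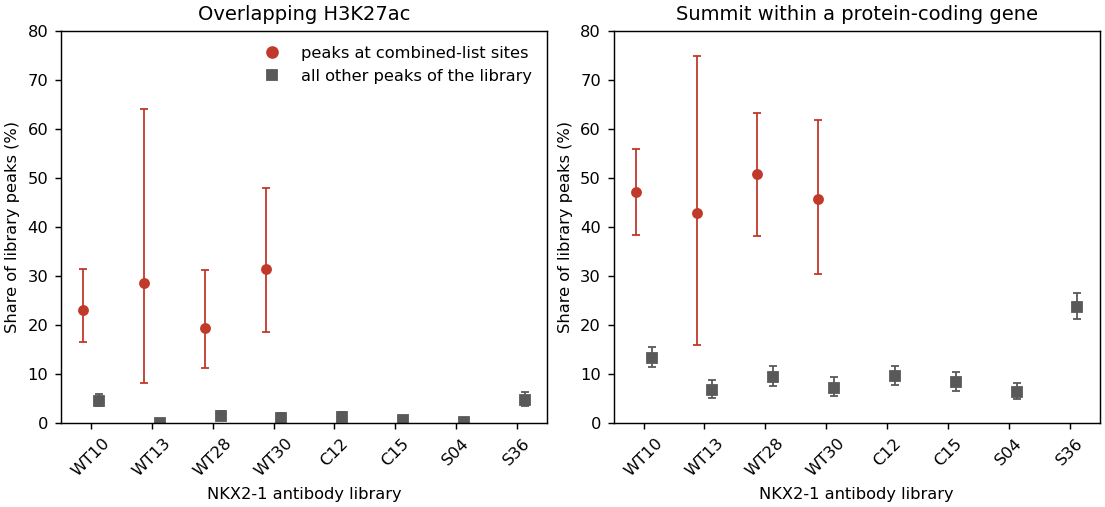
Percent of calls that overlap an H3K27ac peak and percent with the summit in a protein-coding gene (vertical axes) in each NKX2-1 library (horizontal axes), for list calls (red circles) and all other calls (grey squares), with 95% Wilson intervals as bars. In the 4 WT libraries the list calls lie at 19.3 to 31.4% and 42.9 to 50.9%, above the other calls of the same library.

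Inside genes the peaks were spread over the gene's length. Strand was known for 75 of the 98 in-gene peaks, and successive stretches of 25% of the gene, from its 5′ end, held 25, 15, 22 and 13 peaks. Exons, introns and UTRs were not determined. Of the 111 outside genes, 36 lay in a noncoding gene or pseudogene, and among the 86 with strand 42 were upstream and 44 downstream of the nearest gene. Peaks over 50 kb from any protein-coding gene were called in a WT library in 41 of 58 cases (70.7%). Those between 1 and 10 kb from a gene were called in 6 of 18 (33.3%, 95% Wilson interval 16.3 to 56.3). The share was 59.8% in genes, 61.5% at gene ends and 57.1% at 10 to 50 kb, so it followed no steady order with distance.

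The 13 peaks within 1 kb of a gene end lay mostly at starts. Just before the start lay SNRNP70 (159 bp), ZNF764 (40 bp), JPT2 (26 bp), PPME1 (91 bp; a methylesterase of the phosphatase PP2A), RPE (151 bp) and SZRD1 (278 bp). Just inside it lay FAM32A (11 bp), the chloride transporter gene CLCN6 (3 bp), WDR74 (227 bp; ribosome assembly) and HHEX (960 bp). The other 3 were at 3′ ends: MICAL3, an actin-oxidising enzyme, CNOT3, a subunit of the CCR4-NOT deadenylase, and RTKN2. Of the 13, 8 were called in a WT library, only SZRD1 in 3, and HHEX alone overlapped H3K27ac. Another 5 had H3K27ac within 1 kb: SNRNP70, JPT2, PPME1, WDR74 and SZRD1.

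Grouped by the function of the nearest gene, 146 peaks at 142 genes fell into 12 groups made after the names were known, so their counts are a description. Against them stand the whole list's 126 of 209 called and 60 of 209 within 1 kb of H3K27ac. A nearest gene is not shown to be regulated by the site. It can also lie far off, over 50 kb away for 58 of the 209 peaks, and the groups include such genes.

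**Figure D5:**
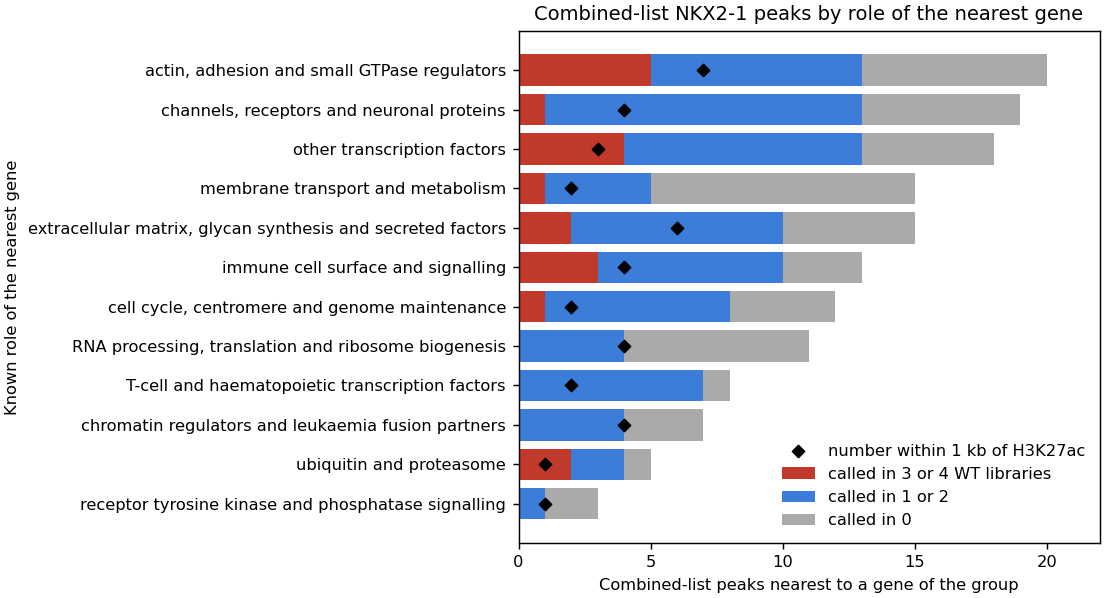
Number of combined-list peaks (horizontal axis) in each functional group of nearest genes, split by colour into peaks called in 0, 1 or 2, and 3 or 4 WT libraries, with a diamond at the number within 1 kb of H3K27ac. Actin, adhesion and GTPase genes form the biggest named group with 20 peaks, 5 of them called in 3 or 4 libraries.

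T-cell and haematopoietic transcription factors were nearest to 8 peaks, of which 7 were called in a WT library, 4 in WT10 and WT28 together, and none in 3 or more. ETV5, an ETS factor, had 7.87-fold in WT10 and 6.78 in WT28 at a peak inside the gene. FOXP1, which keeps naive T cells quiescent, had 7.16 and 5.34 at a peak 72.0% into the gene. Neither lay within 10 kb of H3K27ac, the distances being 10076 and 311139 bp.

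RBPJ, the DNA-binding partner of NOTCH, had 6.71-fold in WT10 and 5.40 in WT28 at a peak 55.5% into the gene (chromosome 4, 26288293 to 26288602). LDB2, a LIM-domain binding cofactor, had 6.38 and 6.53 at a peak 166649 bp away. In WT10 alone were the peaks of HHEX (5.67-fold), a homeodomain factor of blood progenitors, ETS1 (4.77-fold, 156078 bp away) and BCL11B (5.65-fold). BCL11B commits progenitors to the T lineage. Its peak (chromosome 14, 98198494 to 98198772) lay 970629 bp downstream, the farthest of all 209 from a protein-coding gene, and overlapped a 9.85-fold H3K27ac peak. The 2 of the group that overlapped H3K27ac were HHEX and BCL11B.

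Among 18 peaks at other transcription factor genes 13 were called, 4 of them in 3 or 4 libraries: those of ZNF652, KRABD4, TRIP4 and one of the 2 at HELT. EHF, an epithelial ETS factor, and PLAGL1, an imprinted zinc-finger gene, had in-gene peaks in WT10. FOXD1, a forkhead factor, had a peak in WT30 alone. The peaks of LHX8, ZNF267, ZNF619, ZFP64 and TBPL1, a TATA-binding protein relative, were called in none.

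Chromatin regulators and fusion partners in leukaemia had 7 peaks, 4 called, all in WT10 only. AFF1, the usual KMT2A fusion partner in infant leukaemia, had a peak 13% into the gene that overlapped H3K27ac. AHI1, which lies beside MYB and is not itself known as a chromatin regulator, had a peak that did so 70.4% into the gene. The group is therefore loosely drawn. MSI2, an RNA-binding stem cell factor, and ATXN7, of the SAGA complex, had in-gene peaks 150 and 144 bp from H3K27ac. The peaks at BMI1, a Polycomb gene, SETD2, the histone H3 lysine 36 methyltransferase, and NUP98, a nucleoporin and fusion partner, were called in no library.

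At immune surface and signalling genes 10 of 13 peaks were called, 3 of them in 3 or 4 libraries (TRIM14, CD99 and CNR2). RIPK2, the kinase downstream of NOD receptors, had 8.06-fold in WT10 and 8.08 in WT28 at a peak 514028 bp away. MARCHF1, a ubiquitin ligase for MHC class II, had 6.45 and 5.04. The 2 libraries were nearly equal at RIPK2, and WT10 was the higher at MARCHF1. Called in WT10 alone were the peaks nearest to PTPRC (CD45), 273954 bp away, and to the integrin gene ITGA4, 151253 bp away. So were those of CLNK, a lymphocyte adaptor, and TNFAIP8. The peak nearest to VAV3, a guanine nucleotide exchange factor 51634 bp away, was called in WT28 alone. STK4 (MST1), ARHGAP25 and RHEX, the last under H3K27ac, were called in none.

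Cell cycle, centromere and genome maintenance genes had 12 peaks, 8 called. CDT1, which licenses replication origins, had 7.38-fold in WT10 and 7.68 in WT28 at a peak 4606 bp upstream that overlapped a 16.7-fold H3K27ac peak. NUF2, a kinetochore protein gene, had 6.34 and 7.78 at a peak 470803 bp away. BTG4 had 9.54 in WT10 and 3.47 in WT28, the 2 libraries standing far apart there. CCND3 (cyclin D3), CETN3 (centrin) and GEN1, a Holliday junction resolvase, were called in WT10. The peaks of BTG1, NABP1, FHIT and RBM38 were called in none.

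Ubiquitin and proteasome genes had 5 peaks, 4 called: USP20, PSMB1, UBE2E2, a conjugating enzyme, and ATXN3L, a deubiquitinase. FBXL12, an F-box gene, had none. RNA processing and ribosome genes had 11 peaks and only 4 called, namely CNOT3, SRRM3, a splicing regulator, and both at ZC3H3, a polyadenylation factor. SNRNP70, LSM3, WDR74 and EEFSEC, an elongation factor for selenocysteine, were uncalled but lay over or within 1 kb of H3K27ac. Membrane transport and metabolism genes had 15 peaks, 5 called. SLC44A1, a choline transporter, had the highest of these, 9.54-fold in WT10 and 11.6 in WT28, at 99506 bp upstream. ABCA4, the retinal lipid flippase, had 6.10 in WT10 and 5.58 in WT30 under H3K27ac.

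Actin, adhesion and small GTPase genes were nearest to 20 peaks, 13 called, 5 in 3 or 4 libraries (MYLK4, KRT2, CYRIA, RAB4A and MYO3B) and 7 within 1 kb of H3K27ac. SSH2, a cofilin phosphatase, and MICAL3 were called in WT10. CDH26, a cadherin, was called in WT10 under H3K27ac at 173445 bp, and MYO18B was uncalled under H3K27ac.

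Matrix, glycan and secreted factor genes had 15 peaks, 10 called and 6 within 1 kb of H3K27ac. Besides GALNT6 and STT3B these 6 were ST3GAL1, a sialyltransferase, the heparan sulfate enzymes HS6ST1 and HS3ST1, and SULF2, a heparan sulfatase, at 1 of its 2 peaks. ADAMTS12, a secreted protease, had 5.44-fold in WT10 and 6.16 in WT28, and PDGFD, a growth factor, 5.67 in WT10 and 5.39 in WT30. The peak nearest to FN1 (fibronectin), 245293 bp away, was called in WT10 alone. That nearest to NOG, the BMP inhibitor noggin, 86123 bp away, was called in none.

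Channel, receptor and neuronal genes had 19 peaks, 13 called. OLFM1 had 8.72-fold in WT10 and 5.67 in WT30 under H3K27ac, GABRA2, a GABA receptor subunit, 5.70 and 5.64, and the mitochondrial channel gene VDAC1 6.58 in WT10 and 6.96 in WT28. SCN3A, CHRNA1, KCNJ2, NKAIN2 and AGTR1, the angiotensin receptor, were called in WT10 alone. GLP1R, the incretin receptor, was uncalled under a 12.5-fold H3K27ac peak.

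ALK, a receptor tyrosine kinase rearranged in lymphoma, had a peak 64.8% into the gene, called in WT10 (6.98-fold) and 191 bp from H3K27ac. PTPRR and MAP2K5 were called in none.

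Genes outside these groups that the rule names include FZD7, a Wnt receptor (46339 bp away, WT10 and WT30), TSN (WT10), FHL2, a LIM-only coactivator (WT10), PITPNM2, a lipid transfer protein (WT10), C21orf58 and GARIN4 (both WT10), ARRDC2, an arrestin family gene, and ANKS1A (both called in none). All but FZD7 were under H3K27ac. C7orf33 lay 12942 bp from a peak called in WT10 and WT28. Textbook genes within 10 kb that the groups leave out include ATG13, of the autophagy starter complex, and GNG12, a G protein subunit, both called in none.

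Pairs of peaks shared a nearest gene at 6 genes. The 2 peaks were 107 bp apart at ZC3H3, 657 bp at HELT, 3255 bp at C1orf174, 12758 bp at XKR6, 25047 bp at GFRA2 and 53447 bp at SULF2. Both of a pair were called at 5 of these genes and neither at SULF2. C1orf174 was the only pair with both peaks under H3K27ac. The HELT pair had 6.38-fold and 8.05-fold in WT10, and 5.12 and 6.22 in WT28.

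Of the 7 peaks over 500 kb from any protein-coding gene, those nearest to KRABD4 and MCTP2 were called in 3 WT libraries, RIPK2 in 2, and BCL11B, KCNJ2 and TMEM121 in WT10 alone. UQCRFS1 was uncalled. The TMEM121 peak lay inside the immunoglobulin heavy chain locus IGH (chromosome 14, 106163872 to 106164223), the KCNJ2 peak in the noncoding gene CASC17 and the MCTP2 peak in LETR1.

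Some members sit in near-identical copies, where reads cannot be placed with certainty. SRGAP2B and SRGAP2C, duplicates of the neuronal gene SRGAP2, each had a peak called in WT10 and WT28, at 49603 and 49585 bp from the start of the gene. The peak nearest to FAM72C, called in WT10, lay in a further copy, SRGAP2D. The peak of SRGAP2 itself lay at nearly the same offset, 49488 bp from the start, and was called in none, as were those of RGPD3 and RGPD4. These members are uncertain as to which copy they belong to.

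A combined-list peak lay in or within 10 kb of 149 of the 20033 protein-coding genes (0.744%). The lists of known genes set for this question, 243 symbols in all, had 3 such genes: HHEX (1 of 24 T-ALL oncogenic factors), RUNX2 (1 of 16 RUNX and CBF partners) and SETD2 (1 of 41 chromatin regulators). T-cell development and signalling genes had 0 of 29, DNA damage genes 0 of 42, the listed ubiquitin ligases and deubiquitinases, which do not include USP20, 0 of 29, Wnt signalling genes 0 of 43 and JAK-STAT genes 0 of 25. Among gene families, TRIM genes had 2 of 77 (TRIM14 and TRIM47), ubiquitin-specific proteases 1 of 77 (USP20) and genes named ZNF, ZSCAN, ZKSCAN or ZFP 4 of 566. A set of homeobox families that holds HOX, NKX and TLX genes but not HHEX had 0 of 97. Each of these counts is a handful of genes and is given as a description.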

How the data were processed

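Per the submitters' processing notes, the authors used FastQC, Bowtie2, SAMtools, MACS2 and deepTools with hg38; their versions, settings and controls are not given in the sources used here. Each deposited peak carries a ratio (fold enrichment over background) and a −log10 q, used to rank, filter and describe within its own list. Depth is unknown.

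Overlaps were counted from 1 bp, on chromosomes 1 to 22, X and Y, with 1-based coordinates. Genes came from RefSeq for GRCh38.p14 (20033 protein-coding genes, strand known for 15841), and a peak's gene is the one nearest its summit. Python 3.11.15, pandas 2.3.3, NumPy 2.4.6, SciPy 1.17.1 and matplotlib 3.10.9 were used. Library shares were compared by two-sided exact permutation tests, adjusted over 4 tests by Benjamini-Hochberg at 0.05, with scripts tested on simulated data. Intervals are 95% Wilson and cover counting error only. A count of 0 allows a share of 3 counts over the total.

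The members, gene lists and tests were chosen with earlier results of these data known. Named genes are those of peaks called in 3 or 4 WT libraries, overlapped by H3K27ac or within 1 kb of a gene end. Also named are those of peaks among the 30 highest ratios, sharing a nearest gene, or over 500 kb from any gene. Textbook genes were added with their calls and, for some, their position, and the functional groups include genes over 10 kb away. Library values printed for genes outside this naming rule were chosen after they were seen. Alternatives covered overlap rule, q thresholds, gene sets and leaving out each library. Some named items are not reported here, and the groups by function leave them out.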

Additional observations from a re-analysis of the deposited data

How the results depend on the processing

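Of 108 alternative values, 0 reversed and 11 moved beyond the limit set for them (a factor of 1.5 for counts, the 95% Wilson interval for shares of the list). For the 4 library differences, the limit was only the direction and the side of the adjusted threshold of 0.05, which none passed, so the other 97 values include some well away from those reported. The gene-body difference from KO calls fell from 34.7 to 18.4 points (exact permutation p 0.0286 and 0.114) without KO calls that a WT peak overlaps, an alternative chosen after seeing the data. The WT values in it cover list calls alone, so these p-values do not compare like calls and nothing about genotype is read from them. Keeping only combined-list peaks with a −log10 q of 10 or more left 76 called in a WT library, of 94, and put 39.4% in genes. Requiring a −log10 q of 10 or more of H3K27ac peaks lowered the overlap to 9.09%, and counting H3K27ac within 1 kb raised it to 28.7%. Counting all genes of the table, noncoding ones included, put 64.1% of summits in a gene and 12.9% within 1 kb of a gene end. Leaving out 1 WT library gave 69 to 126 peaks called in at least 1, with 69 without WT10, and 6 to 24 called in 3 or more, with 6 without WT10, WT28 or WT30. At 50 kb, the fixed gene lists had 6 of 249 entries near a peak, against 3 at 10 kb. Over all 20033 protein-coding genes the count also rose, from 149 (0.744%) at 10 kb to 337 (1.68%) at 50 kb. The difference in H3K27ac overlap from other calls of the same library was 21.7 to 25.9 points when a WT library was left out, and 11.7 points with the stricter H3K27ac peaks, against 23.9 reported; the exact permutation p with 3 pairs is 0.25 at the smallest. No paired analysis was possible because the clones of the 2 genotypes share no numbers. Depth is unknown, so an uncalled site cannot be told apart from one missed at low depth.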
